A study of Mus musculus with 24 samples.

Results

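The transcripts described here are those of 41 genes of DNA replication and cell division, out of 54232 gene identifiers counted in each library. They were taken from a fixed list of symbols: 16 replication genes, 5 regulators of the passage from G1 into S phase, and 20 mitosis genes. One of the 41, the replication licensing factor gene Cdt1, was listed at 0 counts in each of the 24 libraries, so 40 members could be tested. Marrow of female C57BL/6 mice, aged 6 to 8 weeks, was grown as stromal cultures for 7 days before RNA was taken. The mice were wild type (labelled WT) or Sh3bp2KI/KI (labelled CBM), which carry a knock-in on both copies of the adaptor gene Sh3bp2 as a model of cherubism, an inherited disease of jaw bone. All cultures were grown in the same medium, and cells were sorted before RNA extraction: cells with both CD45 and Sca1 on their surface were called hematopoietic, and Sca1-positive cells without CD45 were called mesenchymal. Each genotype gave 6 libraries of each population. The labels do not say whether libraries came from separate animals, so a p-value covers the spread between the libraries and no more.

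A dividing cell first licenses its replication origins by loading the MCM helicase with the help of CDC6 and CDT1, fires them in S phase, and copies its DNA with polymerases held by the PCNA clamp. D-type cyclins with CDK4 or CDK6 phosphorylate the retinoblastoma protein and so free E2F factors, which switch on genes of nucleotide supply and replication. Later, cyclins A and B with CDK1, the Aurora and Polo kinases, kinesins and the spindle checkpoint carry the cell through mitosis. Their genes peak in G2 and M phase under complexes that contain MuvB. In marrow cultures these genes are read as marks of the dividing fraction, and in bulk RNA a smaller share of dividing cells cannot be told apart from less RNA per dividing cell.

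Promoter sequences of replication and mitosis genes are shown for members whose stretch holds the letters at issue and for Tyms, a member called between genotypes. RefSeq windows on GRCm38.p6, of 250 bases before and 50 bases after the start, matched 32 of the 41 members. Both strands were searched for an E2F type site (TTTCGCGC, TTTGGCGC, TTTCCCGC or TTTGCCGC), for the CHR element bound by MuvB (TTTGAA), and for CCAAT, the box bound by NF-Y. An E2F match lay in 7 of the 14 matched replication genes and 1 of the 16 matched mitosis genes, against 2.26% of all 32851 windows. A CHR match lay in 2 of the 14 and 11 of the 16, against 17.9% of all windows, and CCAAT in 10 of the 14 and 14 of the 16, against 37.4%. Matches could overlap, as the E2F matches on opposite strands do in Mcm6 and Mcm5, and a window was counted once for each motif. The 32 members had 34 windows, and a member counted when any of its windows matched. The shares over all are of single windows. Neither of the 2 matched G1/S regulators, E2f1 and Ccne1, held any of the 3 motifs. The stretches below are the 160 bases before the start on the gene's strand, with matches in capitals, and none of them overlaps an annotated GENCODE exon. Tyms (chr5:30073626-30073785, minus strand) has no match in its window. Mcm6 (chr1:128359706-128359865, minus strand) has E2F matches beginning 110, 106 and 47 bases before the start and CCAAT matches at 57 and 14. Mcm5 (chr8:75109349-75109508, plus strand) has a pair of overlapping E2F matches at 153 and 149 and CCAAT at 77 and 22. Cdc6 (chr11:98907991-98908150, plus strand) has 1 E2F match at 138. Its start is the RefSeq one, and GENCODE transcripts that begin upstream, the first at base 98907801, have an intron over the stretch. Top2a (chr11:99024190-99024349, minus strand) has a CHR match at 23 and CCAAT boxes at 149, 98, 78 and 58. Ccnb2 (chr9:70421555-70421714, minus strand) has CCAAT boxes at 87, 54 and 21, the spaced array known from cyclin B promoters. Mki67 (chr7:135716380-135716539, minus strand) has CHR matches at 116 and 98 and CCAAT at 141. A match is a run of letters and not a measured binding site.
Tyms: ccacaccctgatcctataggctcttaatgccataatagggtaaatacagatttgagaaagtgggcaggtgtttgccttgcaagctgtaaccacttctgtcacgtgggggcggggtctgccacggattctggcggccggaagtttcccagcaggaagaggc
Mcm6: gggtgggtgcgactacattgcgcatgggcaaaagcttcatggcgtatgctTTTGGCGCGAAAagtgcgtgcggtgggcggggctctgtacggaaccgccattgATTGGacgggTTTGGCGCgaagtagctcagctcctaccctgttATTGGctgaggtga
Mcm5: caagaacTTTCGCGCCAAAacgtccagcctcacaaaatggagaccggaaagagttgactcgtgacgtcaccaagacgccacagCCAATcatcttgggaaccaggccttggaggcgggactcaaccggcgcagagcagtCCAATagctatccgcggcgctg
Cdc6: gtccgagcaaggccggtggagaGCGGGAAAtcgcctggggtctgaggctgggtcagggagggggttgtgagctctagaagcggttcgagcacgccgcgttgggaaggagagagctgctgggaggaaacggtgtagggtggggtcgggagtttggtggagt
Top2a: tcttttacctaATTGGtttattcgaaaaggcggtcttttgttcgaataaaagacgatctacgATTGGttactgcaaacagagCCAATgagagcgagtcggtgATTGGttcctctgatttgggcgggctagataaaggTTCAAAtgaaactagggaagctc
Ccnb2: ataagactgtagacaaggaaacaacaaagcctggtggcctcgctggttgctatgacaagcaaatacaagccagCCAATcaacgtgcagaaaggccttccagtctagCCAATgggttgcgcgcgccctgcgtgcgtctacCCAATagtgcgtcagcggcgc
Mki67: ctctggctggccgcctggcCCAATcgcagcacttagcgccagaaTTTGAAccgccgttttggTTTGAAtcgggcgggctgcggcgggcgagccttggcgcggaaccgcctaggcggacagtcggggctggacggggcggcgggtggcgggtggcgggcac

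Total counts per library ran from 9875390 to 15826711, and values below are in CPM, the count after TMM scaling for library size. The populations matched their labels: the summed level of 12 leukocyte markers was 11617 to 25757 CPM in hematopoietic libraries and 29.8 to 138 CPM in mesenchymal ones. Stromal RNA made up an estimated 4.87% to 23.3% of the hematopoietic libraries, and leukocyte RNA 0.163% to 0.891% of the mesenchymal ones. A prefix in the deposited file names splits the libraries into a set 1 and a set 2, with 3 libraries of each group in each. No label says what the prefix means. Some libraries stood apart for these genes. Knock-in mesenchymal replicate 6 (set 2) was the highest of its group for 37 of 40 members, at a median of 1.63 times the group median. Wild type hematopoietic replicate 6 (set 2) was the highest for 35 of 40, at 1.32 times. Knock-in hematopoietic replicate 3 (set 1), which had the largest stromal share, 23.3%, was the lowest for 26 of 40, at 0.772 times. Knock-in mesenchymal replicate 4 (set 2) was the lowest of its group for 34 of 40, at 0.755 times.

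The hematopoietic cells carried more of both classes than the mesenchymal cells. The 16 replication genes summed to between 904 and 1401 CPM in wild type hematopoietic libraries, with a median of 1082, and to between 719 and 1117 CPM with a median of 990 in knock-in ones. In mesenchymal cells the sums lay between 552 and 680 CPM in wild type, with a median of 623, and between 481 and 890 CPM in knock-in, with a median of 610. The 20 mitosis genes summed to 1861 to 2906 CPM in wild type hematopoietic and 1701 to 2388 CPM in knock-in hematopoietic libraries. Their mesenchymal sums were 945 to 1199 CPM in wild type and 757 to 1863 CPM in knock-in. Wild type populations did not overlap in either sum, and knock-in populations overlapped only through mesenchymal replicate 6, for the mitosis sum at 1863 against a lowest hematopoietic value of 1701 CPM and for the replication sum at 890 against 719 CPM. The replication sum divided by the mitosis sum lay between 0.417 and 0.575 in knock-in hematopoietic and between 0.43 and 0.518 in wild type hematopoietic libraries. In mesenchymal cells that ratio was 0.49 to 0.643 in wild type and 0.478 to 0.634 in knock-in.

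**Figure D1:**
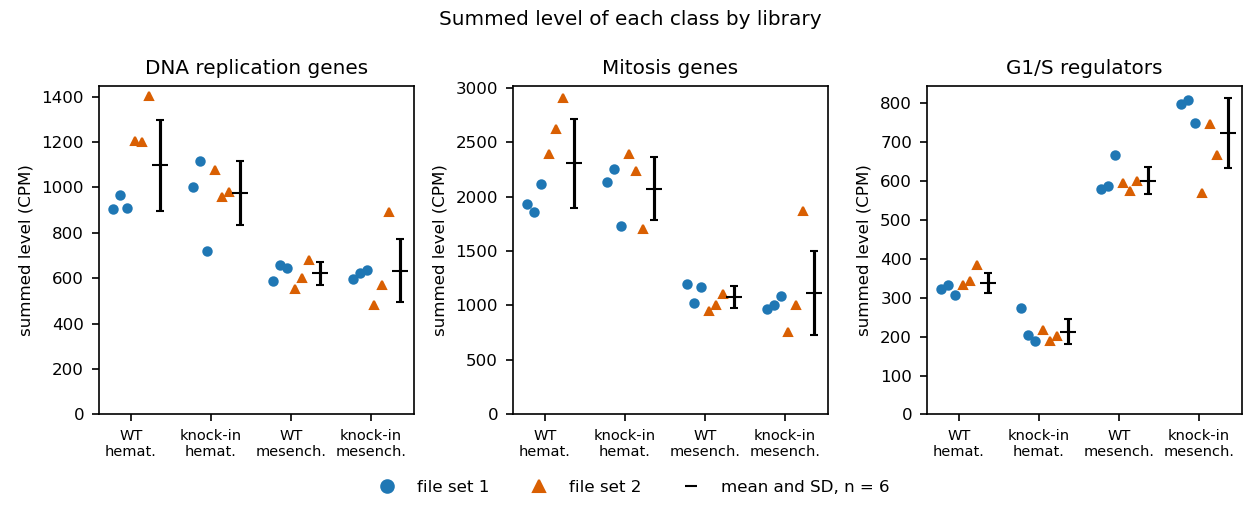
Summed level of each class (CPM, y axis) in the 24 libraries by group (x axis), with circles for file set 1, triangles for file set 2 and the group mean and SD beside them (n = 6). Hematopoietic sums of replication and mitosis genes lie above nearly all mesenchymal ones, the summed G1/S level is higher in mesenchymal cells (at least 570 against at most 383 CPM), where Ccnd2 alone gives at least 343 CPM, and the 3 wild type hematopoietic triangles (1199 to 1401 CPM for replication) lie above the 3 circles (904 to 965 CPM).

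Mki67, which encodes the coat protein of mitotic chromosomes used as a proliferation marker, had the highest level per kilobase of exon of all members in the hematopoietic groups, at means of 85.6 CPM per kb in wild type and 77.2 in knock-in. In mesenchymal cells the first place was held by Ccnd2, at means of 41.8 CPM per kb in wild type and 61.8 in knock-in. Cdc25c, the phosphatase that activates CDK1, and the origin licensing gene Cdc6 were the lowest of the members with counts in every group, between 1.53 and 3.7 CPM per kb.

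Among the replication genes, the sliding clamp gene Pcna and the thymidylate synthase gene Tyms were lower in knock-in than in wild type hematopoietic cells. The G1/S cyclin gene Ccnd1 was lower too and by more. These 3 were the only members called at an adjusted p under 0.05 in that comparison, 3 of 40, while 15.9% of all 14030 genes tested were called with 6.89% lower and 9.01% higher. No mitosis gene was called. Fold changes in genotype comparisons are knock-in over wild type.

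Pcna ranged from 79.3 to 141 CPM in wild type hematopoietic libraries, with a median of 105, and from 59.0 to 88.0 CPM in knock-in ones, with a median of 78.8. The groups overlapped, since the set 1 wild type libraries (87.0, 79.3 and 82.0 CPM) reached into the knock-in range. The log2 fold change was -0.45 (SE 0.10, adjusted p = 0.0074). Without the file set as a term the adjusted p was 0.0657. Within set 1 the log2 fold change was -0.22 (adjusted p = 0.412) and within set 2 it was -0.65 (adjusted p = 0.0341). A processed copy, Pcna-ps2, counted at 88 to 491 per library, fell too (-0.43 on the log2 scale, SE 0.11, adjusted p = 0.0152). Whether reads of the pair were split between them was not tested. With the counts of pseudogenes added to their parent genes Pcna had -0.44 (adjusted p = 0.00752).

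Tyms, whose product makes the thymidylate used in DNA synthesis, ranged from 25.95 to 50.6 CPM in wild type hematopoietic libraries, with a median of 34.2. Knock-in libraries ranged from 17.99 to 26.3 CPM, with a median of 21.8. Only the lowest wild type library, at 25.95 CPM, lay inside the knock-in range. The log2 fold change was -0.64 (SE 0.16, adjusted p = 0.0138). It was -0.34 within set 1 (adjusted p = 0.391) and -0.92 within set 2 (adjusted p = 0.0593). The set 2 contrast of a product fit with all 12 libraries gave -0.92 with an adjusted p of 0.0222, past the threshold.

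Ccnd1 encodes cyclin D1, the growth factor responsive partner of CDK4 and CDK6. Its level ran from 146 to 249 CPM in wild type hematopoietic libraries, with a median of 207, and from 49.2 to 114 CPM in knock-in ones, with a median of 88.4. Every knock-in library lay below every wild type library, which held in this direction for 3.19% of all genes tested and for 1 of the 40 members. The log2 fold change was -1.20 (SE 0.17, adjusted p = 0.000661), or 2.30-fold lower. It was -1.004 within set 1 (adjusted p = 0.129) and -1.38 within set 2 (adjusted p = 0.00522). In the product fit set 1 passed too (-1.02, adjusted p = 0.0366). Ccnd1 (chr7:144929931-144939925, minus strand, GRCm38) shares 1100 exon bases with LTO1 on the opposite strand, and LTO1 itself had a log2 fold change of -0.09 (adjusted p = 0.597).

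Stromal cells also express Ccnd1, and the estimated stromal share of the hematopoietic libraries was 5.95% to 19.9% in wild type and 4.87% to 23.3% in knock-in. With that share of RNA subtracted, the log2 fold changes were -1.27 for Ccnd1 (adjusted p = 0.00463), -0.69 for Tyms (adjusted p = 0.0129) and -0.48 for Pcna (adjusted p = 0.00351). Of the leukocyte markers, Adgre1, Cd53, Coro1a, Fcer1g and Laptm5 fell and Itgb2 and Lyz2 rose, and the summed level of the list was 11617 to 19607 CPM in wild type and 17308 to 25757 CPM in knock-in. The B cell marker Cd79a fell (log2 fold change -2.20, adjusted p = 0.0124), and the 6 B lineage markers summed to 4.55 to 52.1 CPM in wild type and 2.52 to 13.7 CPM in knock-in. The 6 granulocyte precursor markers all had log2 fold changes below 0 (median -0.76), and none was called. Their sums were 9.18 to 52.4 CPM in wild type and 4.48 to 25.5 CPM in knock-in. All 4 tested stem and progenitor markers also lay below 0 (median -0.49), and none was called. At an unadjusted p under 0.05 there were 2 of them, beside 4024 of the 14030 genes. That list summed to 20.1 to 47.3 CPM in wild type and 18.7 to 41.2 CPM in knock-in. The part of these shifts in the cell cycle values was not tested. All 3 calls were kept when knock-in replicate 3 was left out (Ccnd1 -1.08, Tyms -0.58 and Pcna -0.41, with adjusted p of 0.000365, 0.0357 and 0.0225) and when wild type replicate 6 was (-1.14, -0.50 and -0.40, with adjusted p of 0.00181, 0.021 and 0.018).

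The remaining 13 tested replication genes did not pass the test. Their class had 12 of 15 log2 fold changes below 0, a median of -0.16 and a range from -0.64 to 0.16, beside a median of -0.0048 over all genes tested. Mcm5, a subunit of the MCM2 to MCM7 helicase ring, ranged from 74.8 to 137 CPM in wild type hematopoietic libraries (median 91.6) and from 55.7 to 101 CPM in knock-in ones (median 90.8), with a log2 fold change of -0.13 (adjusted p = 0.614). Cdc6 was 13.2 to 25.2 CPM (median 20.0) in wild type and 11.3 to 19.2 CPM (median 17.5) in knock-in. Rrm2, the regulated subunit of ribonucleotide reductase, was 35.0 to 56.7 CPM (median 41.5) and 37.0 to 59.3 CPM (median 46.1). Gins2, a subunit of the GINS part of the replicative helicase, had -0.33 (SE 0.11, adjusted p = 0.0588), and DESeq2 gave it an adjusted p of 0.0294. Gins2 shares 2758 exon bases with Gse1 on the opposite strand.

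Mitosis genes in hematopoietic cells had 15 of 20 log2 fold changes below 0, with a median of -0.12 and a range from -0.28 to 0.15. Mki67 was 688 to 1021 CPM in wild type (median 874) and 613 to 895 CPM in knock-in (median 822), with -0.12 on the log2 scale (SE 0.12, adjusted p = 0.556). Top2a, the topoisomerase that untangles sister chromatids, was 261 to 484 CPM (median 322) and 237 to 356 CPM (median 308), with -0.12 (SE 0.12, adjusted p = 0.536). The mitotic kinase gene Cdk1 was 51.8 to 93.0 CPM (median 68.1) and 54.2 to 72.3 CPM (median 60.3), with -0.11 (SE 0.12, adjusted p = 0.604). Ccnb1, its cyclin partner, was 26.1 to 46.6 CPM (median 35.2) in wild type and 28.7 to 43.7 CPM (median 37.2) in knock-in. Cdc20, an activator of the anaphase promoting complex, was 16.9 to 28.6 CPM (median 20.0) and 15.1 to 27.3 CPM (median 21.2). The genotypes overlapped for all 20 mitosis genes.

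Apart from Ccnd1, the G1/S regulators of hematopoietic cells were not called between genotypes. E2f1, the transcription factor set free by phosphorylated retinoblastoma protein, was 21.5 to 31.4 CPM in wild type (median 26.7) and 18.4 to 26.7 CPM in knock-in (median 24.6). Ccne1, cyclin E1, was 8.44 to 16.2 CPM (median 12.5) and 9.87 to 17.6 CPM (median 12.8). Ccnd2, cyclin D2, was 49.2 to 109 CPM (median 68.2) and 38.4 to 98.1 CPM (median 59.1).

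**Figure D2:**
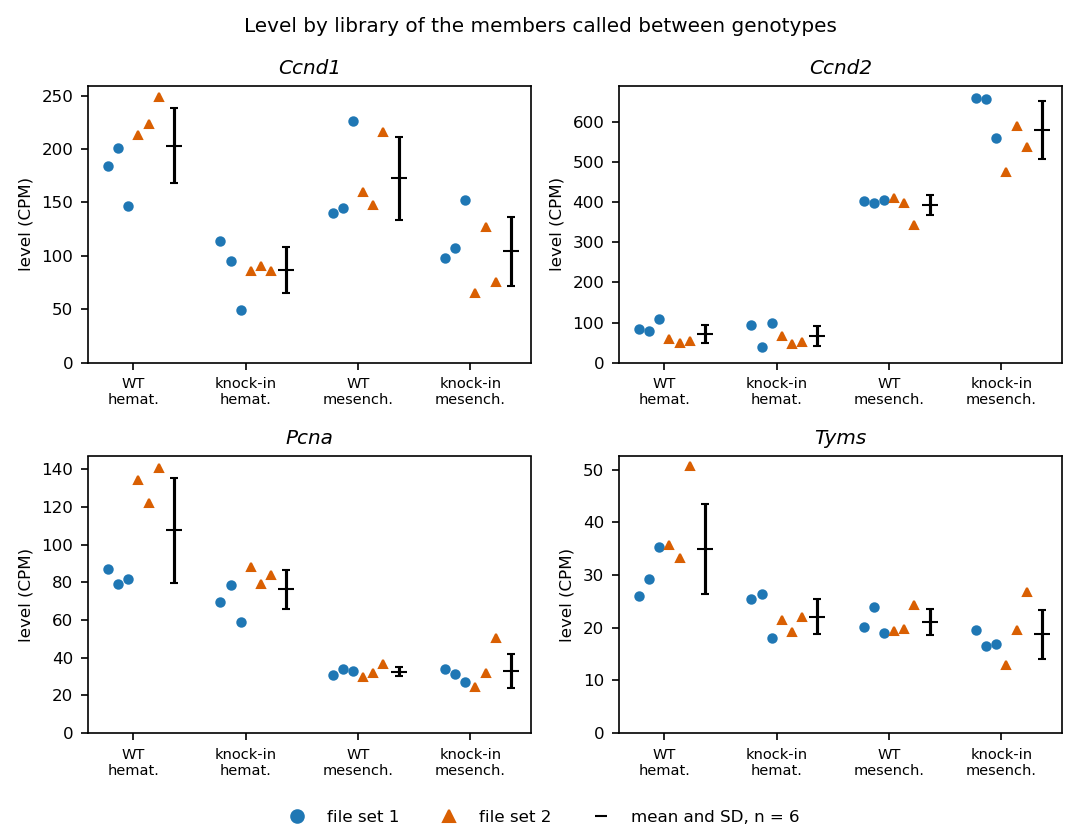
Level in CPM (y axis) of Ccnd1, Ccnd2, Pcna and Tyms in each of the 24 libraries by group (x axis), with circles for file set 1, triangles for file set 2 and mean and SD beside them (n = 6). Knock-in hematopoietic libraries lie below all wild type ones for Ccnd1 (at most 114 against at least 146 CPM), and knock-in mesenchymal libraries lie above all wild type ones for Ccnd2 (at least 477 against at most 411 CPM).

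In mesenchymal cells the 2 D-type cyclin members went opposite ways. Ccnd2 was higher in knock-in cells and Ccnd1 was lower, and these were the 2 of 40 members called, beside 7.27% of all 13867 genes tested, 3.44% higher and 3.83% lower. Ccnd2 was 343 to 411 CPM in wild type mesenchymal libraries, with a median of 401, and 477 to 660 CPM in knock-in ones, with a median of 577. The groups did not overlap, as for 2.06% of all genes in this direction and for 1 of the 40 members. It was 1.48-fold higher (log2 0.57, SE 0.08, adjusted p = 0.00107). In 1 fit of all 24 libraries the adjusted p was 0.0506, and within set 2 alone it was 0.114 at a log2 fold change of 0.49. Ccnd2 (chr6:127125162-127152193, minus strand, GRCm38) shares 740 exon bases on the opposite strand with 9330179D12Rik and Gm43126, and 9330179D12Rik had 0.38 (adjusted p = 0.138). Cell type markers moved in the same comparison. Of 16 stromal markers, the chemokine gene Cxcl12 (-1.72, adjusted p = 0.000793) and the leptin receptor gene Lepr (-1.10, adjusted p = 0.0163) were lower in knock-in cells, and the summed list was 26579 to 49390 CPM in wild type and 30322 to 59059 CPM in knock-in. The basophil protease gene Mcpt8 was higher (2.25, adjusted p = 0.00401), where the 4 mast cell and basophil markers summed to 0.51 to 1.46 CPM and 1.74 to 6.5 CPM, with Ms4a2 and Fcer1a at 0 in both groups. None of 4 tested stem and progenitor markers was called, with 3 at an unadjusted p under 0.05, beside 3152 of the 13867 genes. That list summed to 60.0 to 119 CPM and 75.8 to 245 CPM. The part of these markers in the D-type cyclin values was not tested.

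Ccnd1 was 140 to 227 CPM in wild type mesenchymal libraries (median 154) and 65.4 to 152 CPM in knock-in ones (median 103), with 1 knock-in library, at 152 CPM, inside the wild type range. The log2 fold change of -0.73 (SE 0.20) sat at an adjusted p of 0.047, and this call was fragile. It was lost when wild type replicate 3, 4, 5 or 6 was left out, and likewise knock-in replicate 1, 2, 4 or 6, where the adjusted p rose to as much as 0.105. It was lost within set 1 (-0.52, adjusted p = 0.292) and set 2 (-0.95, adjusted p = 0.211), without the filter on low counts (adjusted p = 0.151) and without the file set term (adjusted p = 0.053). LTO1, on the other strand, had -0.24 (adjusted p = 0.183).

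No replication or mitosis gene was called between genotypes in mesenchymal cells. Replication genes had 7 of 15 log2 fold changes below 0 (median 0.02, range -0.33 to 0.40), and mitosis genes 3 of 20 (median 0.12, range -0.23 to 0.32), beside a median of 0.0011 over all genes. Pcna was 29.6 to 36.8 CPM in wild type (median 32.4) and 24.2 to 50.2 CPM in knock-in (median 31.6), with a log2 fold change of 0.02 (adjusted p = 0.949). Mcm5 was 29.7 to 39.9 CPM (median 32.2) and 17.9 to 53.6 CPM (median 36.3), with 0.04 (adjusted p = 0.935). Mki67 was 286 to 404 CPM (median 318) and 202 to 530 CPM (median 286), with -0.09 (adjusted p = 0.848). Top2a was 123 to 201 CPM (median 161) and 101 to 316 CPM (median 150), with 0.12 (adjusted p = 0.826). In each of these 4 the knock-in group held both the lowest and the highest mesenchymal library. Mcm7, another helicase subunit, had 0.40 (SE 0.13, adjusted p = 0.0711), and DESeq2 gave it an adjusted p of 0.0353. It overlaps Cops6, Ap4m1, Mir25 and Mir93.

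These values leaned on knock-in replicate 6, the library in which 37 of 40 members were highest. Without it, 5 of 40 members were called, where 7.39% of 14012 genes were (3.6% higher and 3.79% lower): Ccnd2 higher (0.57, adjusted p = 0.00177), and Rrm2 (-0.47, adjusted p = 0.0377), Gins2 (-0.46, adjusted p = 0.0442), the salvage kinase gene Tk1 (-0.42, adjusted p = 0.0338) and the survivin gene Birc5 (-0.40, adjusted p = 0.0308) lower. The class medians turned to -0.20 for replication, with 13 of 15 below 0, and to -0.11 for mitosis, with 15 of 20 below 0. That library had the lowest leukocyte share of its group, 0.163%, and its summed mitosis level was 1863 CPM against 757 to 1083 CPM in the other 5. Knock-in replicate 4 stood at the other end, lowest for 34 of 40 members. Without replicate 4, Ccnd2 and Mcm7 were the members called, Mcm7 higher (0.48, adjusted p = 0.0232). Mki67 then had 0.0070 (adjusted p = 0.989). Fits with 1 library left out called 646 to 1036 of all genes.

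Levels of the other members on the list of examples overlapped between genotypes in mesenchymal cells. Tyms was 18.9 to 24.4 CPM in wild type (median 19.9) and 12.9 to 26.9 CPM in knock-in (median 18.3), Cdc6 7.18 to 13.6 (median 8.74) and 4.2 to 11.6 CPM (median 9.24), and Rrm2 41.4 to 63.4 (median 50.2) and 28.8 to 71.7 CPM (median 40.5). E2f1 was 6.2 to 9.67 CPM (median 7.21) and 7.3 to 14.4 CPM (median 8.79), and Ccne1 9.06 to 16.2 (median 12.1) and 11.5 to 16.1 CPM (median 14.6). Cdk1 was 30.8 to 40.3 CPM (median 36.6) and 23.3 to 74.3 CPM (median 35.4). Ccnb1 was 18.3 to 23.9 (median 22.3) and 17.8 to 44.0 CPM (median 22.6), and Cdc20 19.7 to 32.0 (median 29.4) and 19.5 to 34.5 CPM (median 22.965).

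**Figure D3:**
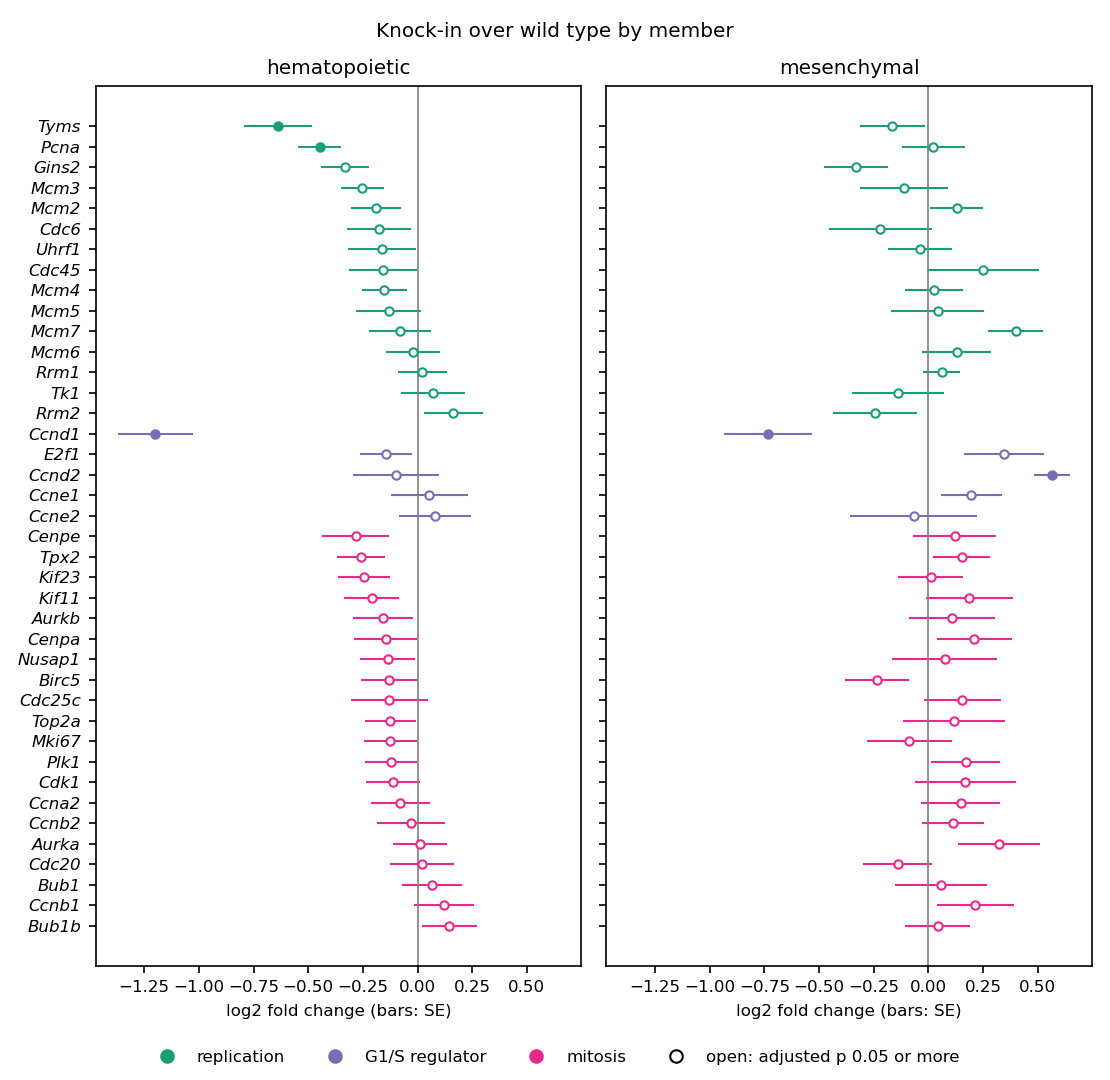
Log2 fold change of knock-in over wild type (x axis, bars show the SE) for the 40 tested members (y axis) in hematopoietic and mesenchymal cells, with filled points for an adjusted p under 0.05. Ccnd1, Tyms and Pcna are filled in hematopoietic cells and Ccnd1 and Ccnd2 in mesenchymal cells, and the mitosis genes lie mostly left of 0 in the first panel (15 of 20) and right of 0 in the second (17 of 20).

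The genotype effects of the 2 populations were set against each other by an interaction term, mesenchymal minus hematopoietic. None of the 40 members was called by edgeR or by DESeq2, against 7.28% of 15389 genes in edgeR. At an unadjusted p under 0.05 in edgeR there were 6 of 40 members, beside 3015 of the 15389 genes. The largest estimates were those of Ccnd2, at 0.67 (SE 0.24, adjusted p = 0.0995), and Mcm7, at 0.51 (SE 0.20, adjusted p = 0.145). Ccnd1 had 0.50 (SE 0.28, adjusted p = 0.356), Pcna 0.48 (SE 0.19, adjusted p = 0.145) and Tyms 0.48 (SE 0.22, adjusted p = 0.218). This fit therefore did not detect a difference in response between the populations for any of them. It does not show that the responses were equal. Leaving out knock-in mesenchymal replicate 4 brought Pcna past the threshold (0.58, adjusted p = 0.0409). File names also carry a sample tag, shared by a hematopoietic and a mesenchymal library in 4 wild type and 5 knock-in cases, and no label says whether it marks an animal. With the tag as a block Ccnd2 passed (0.79, SE 0.19, adjusted p = 0.0306), 1 of 40 members beside 6.98% of all genes. That fit compares populations only in the libraries that share a tag.

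Levels of many members also differed between the file sets within 1 group. In wild type hematopoietic cells, 32 of 40 members were higher in all 3 libraries of set 2 than in all 3 of set 1, among them 13 of 15 replication and 17 of 20 mitosis genes, where 7.52% of all genes tested were so separated upward. In knock-in hematopoietic cells only Pcna was separated that way, 1 of 40 against 4.09% of all genes. In wild type mesenchymal cells 0 of 40 were separated upward and Cdc45 and Tk1 downward, against 12.3% and 10% of all genes, and in knock-in mesenchymal cells no member was separated either way, against 6.42% and 6.11%. Pcna was 87.0, 79.3 and 82.0 CPM in set 1 and 134, 122 and 141 CPM in set 2 of the wild type hematopoietic libraries. The knock-in values were 69.8, 78.5 and 59.0 CPM in set 1 and 88.0, 79.1 and 83.8 CPM in set 2. Mki67 was 728, 688 and 851 CPM in set 1 and 898, 1021 and 981 CPM in set 2 of wild type, while knock-in libraries had 822, 823 and 632 CPM and then 895, 875 and 613 CPM. Ccnd2 ran against the rest and was separated downward, as were 8.91% of all genes, at 82.8, 77.8 and 109 CPM in set 1 and 58.5, 49.2 and 54.7 CPM in set 2 of wild type.

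Over both genotypes the set 2 to set 1 log2 fold changes in hematopoietic cells were above 0 for 39 of 40 members (median 0.23). None was called by edgeR, where 0.0499% of 14030 genes were. At an unadjusted p under 0.05 there were 17 of 40 members, beside 1842 of the 14030 genes. DESeq2 called 1 member, Pcna (0.49, adjusted p = 0.00176). Pcna and Ccnd2 were called without knock-in hematopoietic replicate 2 (0.57, adjusted p = 0.00848, and -0.74, adjusted p = 0.0108), a fit in which the calls over all genes rose from 7 to 225 (1.58%). The estimated genotype effect was lower in set 2 than in set 1 for 39 of 40 members, by a median of -0.40 on the log2 scale for replication and -0.43 for mitosis genes. The interaction test called none of them and none of 14030 genes by edgeR or DESeq2 (0.0% called, 288 genes and 6 members at an unadjusted p under 0.05). Within set 1 alone, mitosis genes had a median log2 fold change of 0.11 (16 of 20 above 0) and replication genes 0.05. Within set 2 alone all 15 replication and all 20 mitosis genes lay below 0, each class at a median of -0.31. The direction of the class medians in hematopoietic cells therefore differed between the sets. The stromal share was 9.15%, 15.6% and 19.9% in set 1 and 11%, 8.06% and 5.95% in set 2 of the wild type hematopoietic libraries. Of 6 granulocyte precursor markers, 5 were higher in set 2 over both genotypes (median 0.62) and 1 lower. The genotype effect was lower in set 2 for all 6 (median -1.22). None of the 6 was called or had an unadjusted p under 0.05 in either test. The part of the stromal share and of these markers in the set difference was not tested.

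In mesenchymal cells the set contrast called no member, beside 0.0288% of 13867 genes, and its interaction with genotype none, beside 0.0721%. Members at an unadjusted p under 0.05 numbered 2 and 0, beside 2546 and 817 of the 13867 genes. DESeq2 also called 0 members in each. Without knock-in replicate 6 the genes called between sets rose from 4 to 468, or 3.34% of those tested, and 3 members were among them. Tk1 (-0.55, adjusted p = 0.031), the origin firing factor gene Cdc45 (-0.66, adjusted p = 0.0389) and Uhrf1 (-0.40, adjusted p = 0.0492), which encodes the reader of hemimethylated DNA at replication forks, were lower in set 2. With all 12 libraries, the 4 tested stem and progenitor markers (median -1.03) and 5 endothelial markers (median -1.25) were lower in set 2. Of 16 stromal markers 12 were higher (median 0.29). No marker of these lists was called, with 4, 4 and 5 at an unadjusted p under 0.05. The part of these markers in the set difference was not tested.

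**Figure D4:**
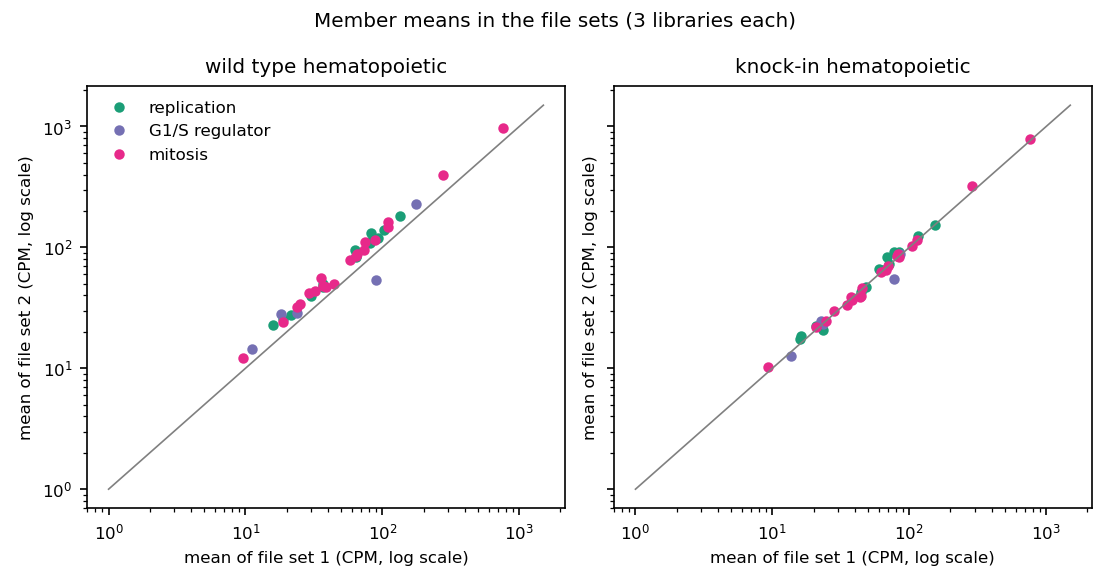
Mean level of each member with counts in file set 2 (y axis, CPM, log scale) against file set 1 (x axis, CPM, log scale) for the wild type and the knock-in hematopoietic group, 3 libraries to a mean, with the line of equal levels. Wild type points lie above the line except Ccnd2 (90.0 CPM in set 1 and 54.1 CPM in set 2), and knock-in points scatter about it.

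Between populations most members were lower in mesenchymal than in hematopoietic cells of both genotypes. In wild type cells 37 of 40 were called, 34 lower and 3 higher, where 73.5% of 15389 genes were called, 38.0% lower and 35.4% higher. In knock-in cells 32 were called, 30 lower and 2 higher, where 73.0% were called, 39.1% lower and 33.9% higher. These comparisons share their libraries with the genotype comparisons. With the file-name tag as a block 30 members were called in each genotype, beside 66.5% of all genes in wild type and 70.5% in knock-in. That fit compares populations only within the 4 wild type and 5 knock-in pairs that share a tag, so it rests on fewer libraries. The wild type calls of Gins2, Ccne2, Ccna2, Ccnb1, Cdc25c, Birc5 and Tpx2 were lost (adjusted p 0.059 to 0.533), and so were the knock-in calls of Ccna2, Plk1 and Cenpe (adjusted p 0.0816 to 0.114), while Cdc45 was added in knock-in (-0.51, adjusted p = 0.0442). The medians over replication, mitosis and all genes tested were -0.85, -0.89 and -0.03 in wild type and -0.47, -0.71 and -0.07 in knock-in.

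Pcna had the largest wild type difference of the replication genes, 3.22-fold lower in mesenchymal cells (log2 fold change -1.69, SE 0.14, adjusted p = 1.36e-10), and 2.30-fold lower in knock-in (-1.20, adjusted p = 4.02e-08). Its wild type values were at most 36.8 CPM in mesenchymal and at least 79.3 CPM in hematopoietic libraries. The helicase subunit genes Mcm3 (-1.55), Mcm5 (-1.50) and Mcm6 (-1.49) followed in wild type, with adjusted p from 7.58e-09 to 7.11e-07. In knock-in cells Tk1 came first (-1.59, adjusted p = 1.85e-07), then Mcm3 (-1.39), Mcm6 (-1.32) and Mcm5 (-1.29). Both subunits of ribonucleotide reductase stood outside this pattern. Rrm1 was higher in mesenchymal cells of both genotypes (0.30, adjusted p = 0.00877, and 0.35, adjusted p = 0.00299). Rrm2 was not called (0.26, SE 0.17, adjusted p = 0.184, and -0.14, SE 0.17, adjusted p = 0.472). Tyms was lower in wild type (-0.73, adjusted p = 0.000205), and in knock-in it had -0.24 (SE 0.16, adjusted p = 0.164). The difference between those 2 values is the interaction given above.

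Of the mitosis genes, the spindle gene Nusap1 (-1.74, adjusted p = 5.03e-08), the Aurora B gene Aurkb (-1.57), the cytokinesis kinesin gene Kif23 (-1.35) and Mki67 (-1.34) had the largest differences in wild type cells. Nusap1 (-1.52), Mki67 (-1.30), Aurkb (-1.30) and the checkpoint kinase gene Bub1b (-1.23) led in knock-in cells, with adjusted p at or below 6.5e-07. Mki67 was 285.9 to 404 CPM in wild type mesenchymal and 688 to 1021 CPM in wild type hematopoietic libraries. Cdc20 alone was higher in wild type mesenchymal cells (0.40, SE 0.16, adjusted p = 0.0255), and in knock-in it had 0.25 (adjusted p = 0.161). The wild type call was lost without hematopoietic replicate 1, 2 or 4 or mesenchymal replicate 3 (adjusted p 0.0527 to 0.0686). The groups did not overlap for 18 of 20 mitosis and 10 of 15 replication genes in wild type cells, and for 5 of 20 and 5 of 15 in knock-in cells, beside 27.9% and 27.5% of all genes tested in that direction.

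The G1/S regulators split. Ccnd2 was 5.62-fold higher in mesenchymal than in hematopoietic wild type cells (2.49, SE 0.18, adjusted p = 1.34e-11) and 8.95-fold higher in knock-in (3.16, SE 0.18, adjusted p = 2.87e-13), with no overlap in either genotype. E2f1 was 3.43-fold lower (-1.78, adjusted p = 4.06e-10) and 2.44-fold lower (-1.29, adjusted p = 7.99e-08). The cyclin E2 gene Ccne2 was lower (-0.63, adjusted p = 0.0342, and -0.77, adjusted p = 0.0116). Its wild type call was lost without hematopoietic replicate 5 or 6 or mesenchymal replicate 3, 4 or 5 (adjusted p 0.0595 to 0.0919), without the filter on low counts (0.0802) and with the file-name tag as a block (-0.38, adjusted p = 0.132). Ccnd1 had -0.23 (SE 0.20, adjusted p = 0.294) in wild type and 0.27 (SE 0.20, adjusted p = 0.237) in knock-in, and Ccne1 -0.05 (adjusted p = 0.773) and 0.11 (adjusted p = 0.555). Per kilobase, wild type hematopoietic cells had Ccnd1 at 43.1 ± 7.47 (SD, n = 6), Ccnd2 at 7.66 ± 2.4 and the third D-type cyclin, Ccnd3, at 4.26 ± 0.923 CPM per kb. Knock-in hematopoietic cells had 18.4 ± 4.49, 6.98 ± 2.69 and 3.55 ± 0.77. Wild type mesenchymal cells had 36.6 ± 8.19, 41.8 ± 2.66 and 2.9996 ± 0.395, so Ccnd1 and Ccnd2 overlapped there. Knock-in mesenchymal cells had 22.1 ± 6.88, 61.8 ± 7.58 and 2.93 ± 0.277, with every Ccnd2 value (at least 50.7) above every Ccnd1 value (at most 32.4).

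**Figure D5:**
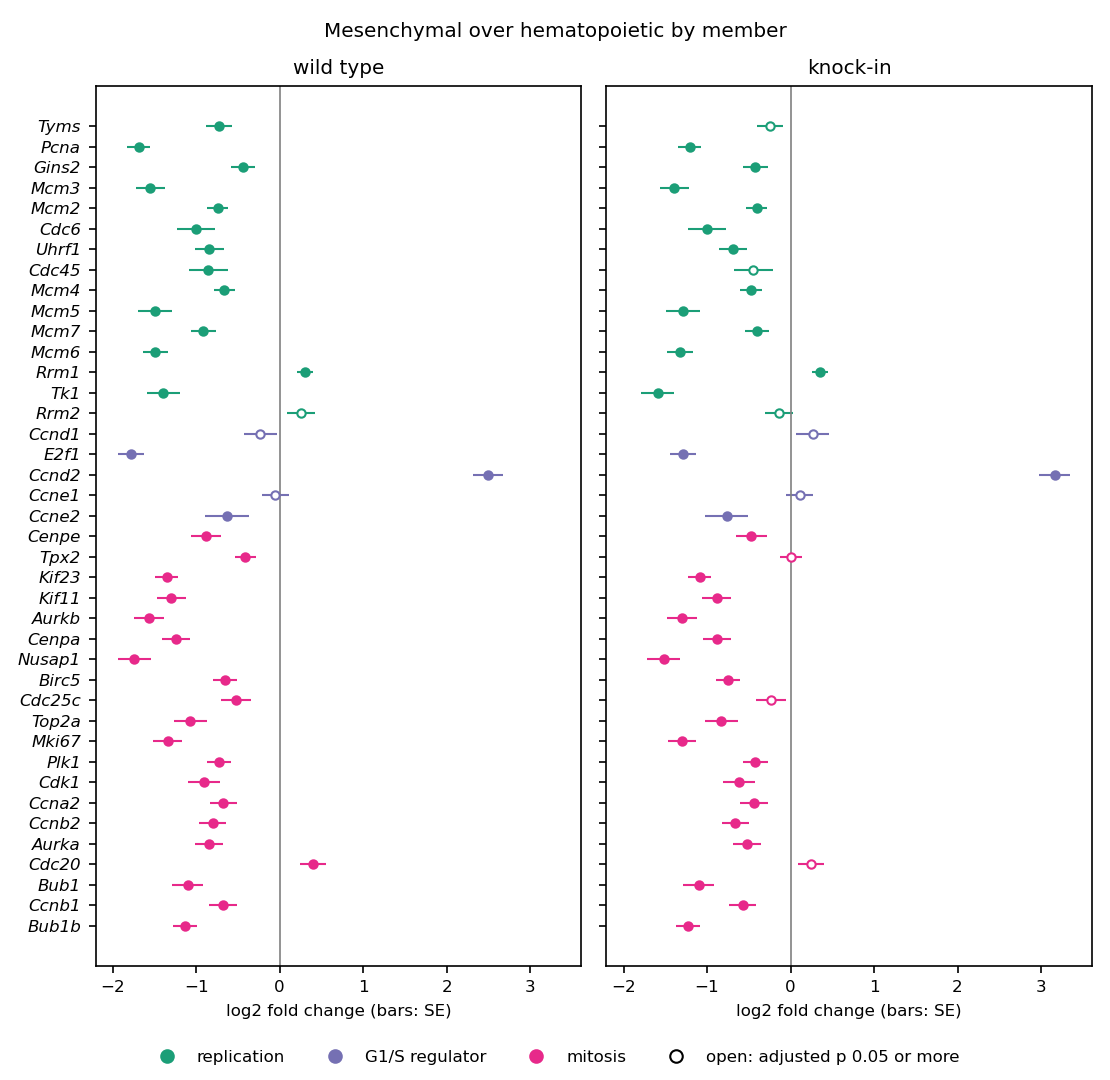
Log2 fold change of mesenchymal over hematopoietic cells (x axis, bars show the SE) for the 40 tested members (y axis) in wild type and knock-in cells, with filled points for an adjusted p under 0.05. Nearly all replication and mitosis genes lie left of 0, Ccnd2 lies far right (2.49 and 3.16), and Rrm1 lies right of 0 in both panels.

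Other genes of the pathway were taken from 4 further lists, to be read beside the 6.89% lower and 9.01% higher of all genes in hematopoietic cells and the 3.83% and 3.44% in mesenchymal cells. Of 43 other replication factors, 3 were called lower and none higher in knock-in hematopoietic cells: the polymerase alpha gene Pola1 (-0.64, adjusted p = 0.0315), the origin kinase gene Cdc7 (-0.49, adjusted p = 0.0445) and Tcf19 (-0.41, adjusted p = 0.0354). Of 55 other mitosis genes 1 was called, the kinesin gene Kif20b (-0.46, adjusted p = 0.0218). The medians of these lists were -0.16 and -0.14. Of 18 other G1/S regulators 1 was called, the retinoblastoma gene Rb1 (-0.40, adjusted p = 0.00721). Of 7 CDK inhibitors 2 were called lower, the p21 gene Cdkn1a (-0.83, adjusted p = 0.00159) and the p18 gene Cdkn2c (-0.42, adjusted p = 0.0332). In mesenchymal cells Rb1 was again lower (-0.46, adjusted p = 0.00784). None of 43 other replication factors, 55 other mitosis genes and 6 tested CDK inhibitors was called there by edgeR. At an unadjusted p under 0.05 these lists had 3, 2 and 0, beside 3152 of all 13867 genes. The interaction called none of the 123 genes in these lists by edgeR, with 7 at an unadjusted p under 0.05, beside 3015 of all 15389 genes.

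Between populations of wild type cells, where 38.0% of all genes tested were lower and 35.4% higher in mesenchymal cells, 35 of the 43 other replication factors were lower and 1 was higher, led by the polymerase delta subunit gene Pold3 (-1.53) and the maintenance methyltransferase gene Dnmt1 (-1.29). Of 55 other mitosis genes 45 were lower and 1 higher, with Cdc25b (-1.75) and Ncapg2 (-2.04) first by adjusted p. Of 18 other G1/S regulators 13 were lower, among them Rb1 (-1.84), Rbl2 (-1.45) and Cdk6 (-1.76), and 2 were higher, Cdk4 (0.68) and Myc (0.84). CDK inhibitors were divided: the Ink4 genes Cdkn2b (3.17) and Cdkn2a (2.78) were higher in mesenchymal cells, and Cdkn2c (-1.17) and Cdkn2d (-1.21) were lower. Each of the values named in this paragraph had an adjusted p at or below 0.00135.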

How the data were processed

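Whole-number counts per gene and library were deposited by the authors, not normalised, for 24 libraries of 4 groups (6 each). Stranded paired-end libraries were made from RNA freed of ribosomal RNA, per the labels' protocols. Per the submitters' processing notes, HTSeq 0.9.1, DESeq2 1.20.0, FastQC 0.11.7 and MultiQC were used with GRCm38. Aligner and strand setting: not given in the sources used here. Genes that overlap on opposite strands are therefore uncertain. Of 54232 identifiers, 54079 matched GENCODE vM21. Totals were 9875390 to 15826711.

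The quasi-likelihood test of edgeR 4.0.16 (R 4.3.3, limma 3.58.1) was run on the whole table after filterByExpr at a minimum count of 10 and a minimum total of 15, with TMM factors, with Benjamini-Hochberg adjustment and a threshold of 0.05. Genotype tests used the 12 libraries of a population with the file set as a term. Population tests and the interaction used all 24. The standard error is the log2 fold change divided by the root of the F statistic. Tags in the file names pair 4 wild type and 5 knock-in libraries across populations. The tags WT5 and HOMO4 each join a hematopoietic library of set 1 to a mesenchymal library of set 2. Deviations of the paired libraries from the group means correlated at 0.089 to 0.448 in wild type and 0.166 to 0.381 in knock-in. No label says what the tags mean, so the tag served only as an alternative block. The fits were tested on simulated counts. Alternatives included DESeq2 1.42.0, other scaling and filters, left-out libraries, single file sets and blocks. Stromal RNA shares were the median level of 15 (wild type) or 13 (knock-in) markers of at least 10 CPM relative to mesenchymal cells. The product fit of genotype and file set and the added pseudogene counts were chosen after seeing the data.

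All 41 members are accounted for. Values are given for members called in a genotype or interaction comparison, and always for Pcna, Tyms, Mcm5, Cdc6, Rrm2, Ccnd1, Ccnd2, Ccne1, E2f1, Cdk1, Ccnb1, Cdc20, Mki67 and Top2a. Population comparisons name the 4 largest called differences of a class, and other lists up to 4 called genes by adjusted p. Gins2, Mcm7, Rrm1, Tk1, Birc5, Cdc45, Uhrf1, Plk1 and Bub1, where named otherwise, were picked once their values were known. The members and lists were chosen with earlier results of these data known.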

Additional observations from a re-analysis of the deposited data

Results flagged for a closer look

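A sample was taken as far from the others when its gap to the nearest exceeded the 95% limit of Dixon's test in its group of 6. Of 172 groups of values tested, 23 did so. Chance gives about 1 in 20 for independent values, but these share the same libraries. Most of the marked values came from knock-in mesenchymal replicate 6. In knock-in mesenchymal replicate 6 the highest values so marked were Mki67 at 530.4 CPM, Top2a at 315.7, Cenpe at 121.8, Ccna2 at 112.4, Kif11 at 109.4, Rrm2 at 71.7, Bub1b at 57.6, Kif23 at 53.6, Nusap1 at 47.1, Ccnb1 at 44.0, Bub1 at 40.1, Cenpa at 37.8 and Aurkb at 16.8 CPM, and the summed mitosis level at 1863 CPM. In knock-in hematopoietic replicate 3 the lowest values were the helicase genes Mcm3 at 64.6, Mcm4 at 59.6 and Mcm2 at 43.0 CPM, with Cdc45 at 13.5 and Cdc6 at 11.3 CPM. Single values were Tk1 at 59.5 CPM, highest in wild type hematopoietic replicate 6, and Ccnd2 at 343.2 CPM, lowest in wild type mesenchymal replicate 6. The summed G1/S regulators were highest at 274.5 CPM in knock-in hematopoietic replicate 1 and at 667.5 CPM in wild type mesenchymal replicate 3.

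Plk1, the Polo-like kinase gene, and the checkpoint kinase gene Bub1 were marked because the genotypes differed in opposite directions in the file sets of the hematopoietic cells. This was not particular to them, since most mitosis genes lay above 0 in set 1 alone and below 0 in set 2 alone, as given above. The knock-in minus wild type difference of mean log2 CPM was 0.10 in set 1 and -0.39 in set 2 for Plk1, and 0.34 and -0.24 for Bub1. The interaction of genotype and file set gave adjusted p = 1.00 for both (edgeR, 6 libraries a group), so neither passed the test.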

How the results depend on the processing

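In hematopoietic cells DESeq2, RLE factors, no filter on low counts, 1 fit of all 24 libraries, added pseudogene counts and subtracted stromal RNA kept Ccnd1, Tyms and Pcna called. The genes called between genotypes there fell from 2231 to 672 in set 1 alone and 218 in set 2 alone, and to 694 and 640 for the sets within the product fit, which holds all 12 libraries. Members called were 0 in set 1 alone and 1 for set 1 in the product fit. Log2 fold changes in set 1, alone and within the product fit, turned to 0.14 and 0.12 for Cdk1, 0.046 and 0.031 for Mcm5, 0.044 and 0.028 for Mki67, and 0.084 and 0.068 for Top2a. In mesenchymal cells 1008 genes became 1664 with DESeq2, 391 and 76 in sets 1 and 2 alone, and 565 and 98 within the product fit. Members called were 1 in set 1 (both fits), 0 in set 2 (both fits), 1 with no file set term and 1 in the fit of all 24 libraries. Set 2, alone and in the product fit, gave Mcm5 -0.0463 and -0.0461 and Mki67 0.16 and 0.16. Set 1 gave Pcna -0.094 and -0.086 and Top2a -0.19 and -0.18, and added pseudogene counts gave Pcna -0.0031. The file set contrast called 7 genes in hematopoietic cells, 336 with DESeq2 and 27 without the filter, with 1 member in each of the last 2. In mesenchymal cells it called 4, then 662 and 129, and its interaction with genotype 10, then 68 and 55. The cause was not tested for any of these.

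Replicate numbers do not state shared animals, and same-numbered libraries did not all deviate together (correlations 0.070 to 0.526 in hematopoietic and -0.041 to 0.397 in mesenchymal cells), so they were not used as pairs. With a replicate block 5 members were called in hematopoietic cells (Gins2 and Mcm3 added), while calls over all 14030 genes rose from 2231 to 3315. In mesenchymal cells 3 were called (Mcm7 added), while calls over all 13867 genes rose from 1008 to 1258. There Mcm5 turned to -0.018 and Pcna to -0.0065. The block left 37 members called between populations in wild type, 33 in knock-in and 0 for the interaction. Beside them 11444, 11370 and 1331 of all genes were called. A block on the file-name tag left 30, 30 and 1, beside 10240, 10845 and 1074 of all genes. In that fit a library whose tag occurs once adds nothing to these contrasts. They rest on the 4 wild type and 5 knock-in pairs that share a tag.

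Leaving out 1 library at a time, the genes called between genotypes ranged from 1745 to 2206 in hematopoietic and from 646 to 1036 in mesenchymal cells, with 3 to 4 and 1 to 5 members. The ranges were 937 to 1166 genes and 0 to 1 members for the interaction. Between populations they were 11135 to 11476 genes and 35 to 37 members in wild type, and 11078 to 11406 genes and 30 to 33 members in knock-in. The file set contrast ranged from 2 to 225 genes and 0 to 2 members in hematopoietic cells and from 1 to 654 genes and 0 to 3 members in mesenchymal cells. Its interaction with genotype ranged from 2 to 16 genes in mesenchymal cells. Mesenchymal log2 fold changes ranged from -0.20 to 0.18 for Mcm5, -0.32 to 0.0070 for Mki67, -0.14 to 0.11 for Pcna and -0.18 to 0.22 for Top2a.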
